A study of Mus musculus with 6 samples.

Results

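The genes of cholesterol synthesis, sterol sensing, intracellular sterol handling and cholesterol efflux were examined in inguinal subcutaneous white adipose tissue (SC-WAT) of mice with and without a functional Egr1 gene. The set was a list of 28 genes given by symbol, found by matching the gene identifiers of each count file to mouse symbols, and all 28 were present among the 47069 identifiers. It held 18 enzymes of the synthesis route, 4 sterol-sensing genes, 2 genes of sterol transfer and esterification, and 4 genes of efflux and its control. Although the set is named for uptake as well, it held no lipoprotein receptor, so receptors were described from a separate list.

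RNA sequencing had been done on fat pads from 3 Egr1+/+ and 3 Egr1-/- female C57BL/6 mice (C57BL/6 J in the study's methods) aged 2 weeks, to ask how loss of the transcription factor EGR1 alters gene expression in SC-WAT. The Egr1-/- mice carried a LacZ coding sequence inserted in the Egr1 gene together with a frameshift ahead of the DNA-binding domain, in every cell of the body. Part of the Egr1 transcript can therefore still be made and counted. The mice came from crosses of heterozygous parents, and a single pair across the genotypes were littermates, which the labels do not identify.

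Each mouse gave between 29661984 and 42357981 counts, of which 50.0% to 66.3% fell on mitochondrially encoded genes. Values are CPM, counts per 1000000 counts of the library, scaled by trimmed mean of M values (TMM), a factor that corrects for differences in library composition. Egr1 itself was at 10.3, 8.02 and 16.5 CPM in Egr1+/+ mice and at 3.09, 2.71 and 1.84 CPM in Egr1-/- mice, with no overlap between the genotypes. The adipocyte marker Adipoq was high in every pad, at 718, 788 and 920 CPM in Egr1+/+ mice and at 686, 551 and 587 CPM in Egr1-/- mice. Its genotypes did not overlap, which happened with Egr1-/- below in 8.1% of all tested genes. The summed CPM of 6 skeletal muscle markers ran from 74.7 to 3112, so the pads held unequal amounts of muscle RNA.

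Cholesterol is built from acetyl-CoA in the mevalonate pathway, which ends in farnesyl diphosphate, and then through squalene and a chain of sterol intermediates. When sterol in the endoplasmic reticulum is low, the escort protein SCAP carries the transcription factor SREBP2 to the Golgi for cleavage, and SREBP2 then switches on the synthesis enzymes together with the CCAAT-binding factor NF-Y. INSIG proteins hold SCAP back when sterol is plentiful, and oxysterols activate the liver X receptors (LXR), which switch on the efflux transporters. Fat is a large store of unesterified cholesterol, most of it in the membrane around the lipid droplet of adipocytes.

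The promoters of 4 members are shown first, because Hmgcs1 was the most abundant member per length and Insig1, Nsdhl and Msmo1 were the members that varied most among Egr1+/+ mice. The sequences are the 250 bases before the transcription start in RefSeq (GRCm38.p6), written 5′ to 3′ on the strand of the gene. Capitals mark CCAAT, the core letters read by NF-Y, on either strand, and in Hmgcs1 also a match to TCACNCCAC, the letters of a sterol regulatory element (SRE) bound by SREBP2.
Hmgcs1 (chr13:119690101-119690350, forward strand): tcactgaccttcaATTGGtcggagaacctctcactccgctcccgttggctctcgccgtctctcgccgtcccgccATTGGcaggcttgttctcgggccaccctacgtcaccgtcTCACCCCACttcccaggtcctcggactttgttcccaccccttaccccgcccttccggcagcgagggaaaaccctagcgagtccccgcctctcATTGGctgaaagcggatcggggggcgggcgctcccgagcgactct
Insig1 (chr5:28071162-28071411, forward strand): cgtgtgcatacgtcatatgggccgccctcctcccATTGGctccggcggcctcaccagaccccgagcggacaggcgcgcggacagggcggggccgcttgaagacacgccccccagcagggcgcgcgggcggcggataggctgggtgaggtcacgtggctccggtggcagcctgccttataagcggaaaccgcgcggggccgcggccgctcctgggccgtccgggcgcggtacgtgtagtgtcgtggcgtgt
Nsdhl (chrX:72918271-72918520, forward strand): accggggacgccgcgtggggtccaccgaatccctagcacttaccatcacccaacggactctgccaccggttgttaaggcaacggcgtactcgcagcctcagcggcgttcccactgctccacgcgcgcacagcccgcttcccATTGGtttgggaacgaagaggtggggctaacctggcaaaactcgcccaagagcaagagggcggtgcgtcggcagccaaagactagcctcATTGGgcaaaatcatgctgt
Msmo1 (chr8:64733579-64733828, reverse strand): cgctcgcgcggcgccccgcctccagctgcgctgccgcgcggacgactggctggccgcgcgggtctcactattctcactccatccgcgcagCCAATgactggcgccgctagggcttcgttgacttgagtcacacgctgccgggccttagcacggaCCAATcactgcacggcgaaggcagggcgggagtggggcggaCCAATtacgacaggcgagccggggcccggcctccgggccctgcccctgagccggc

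The Hmgcs1 promoter held 3 CCAAT matches and 1 SRE match, Msmo1 held 3 CCAAT matches, Nsdhl held 2 and Insig1 held 1. RefSeq promoters of 300 bases (250 before and 50 after the start) were at hand for 23 of the 28 members, which left out Fdps, Fdft1, Sqle, Stard4 and Abcg1. CCAAT occurred in the promoters of 18 of the 23 genes (78.3%), against 41.1% of 27025 genes with a promoter. By role, 14 of 15 synthesis enzymes had a match, Acat2 being the exception, as did 3 of 4 sterol-sensing genes and Soat1. The 3 efflux and LXR genes with a promoter (Abca1, Nr1h2 and Nr1h3) had none, and a difference between roles was not tested. TCACNCCAC was found in 1 of the 23 genes (4.35%), against 1.44% of all genes. The search took exact matches to these letters alone, so a lack of a match does not show that a member lacks an SRE. A direct repeat of 2 AGGTCA half-sites with 4 bases between them, the classic LXR element, was in no member promoter and in 0.0148% of all genes. Only exact copies of both half-sites were searched, found in 4 of 27025 genes. Their absence from 23 genes therefore does not show that the members lack an LXR element. A match describes letters in this window and says nothing of binding in these tissues.

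The letters bound by EGR1 (GCGGGGGCG or GCGTGGGCG, either strand) were present in the promoters of 1 member, Dhcr7, which encodes the last reductase of the route. This was 4.35% of the members with a promoter, against 3.93% of all genes. Dhcr7 has several promoters in RefSeq, and 2 of them held a match, 147 and 191 bases before their starts. The 30 bases around each match are shown on the strand of the gene, with the motif in capitals.
Dhcr7, first promoter (chr7:143823010-143823039, forward strand): cgtgagacccCGCCCCCGCggagatcctgc
Dhcr7, second promoter (chr7:143830013-143830042, forward strand): gaccccagggGCGTGGGCGgggcgtgggtg

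Across the whole set the genotypes were close. None of the 28 members passed the test at an adjusted p of 0.05 with edgeR's quasi-likelihood test, where 3 of all 17667 tested genes did (0.017%). At an unadjusted p under 0.05, 2 of 28 members stood above the threshold with higher values in Egr1-/- mice (Acat2 and Scap) and 0 with lower values, against 10.7% of all tested genes in either direction (5.06% higher and 5.6% lower). With DESeq2, 0 of the 25 members that received an adjusted p passed, against 2.89% of the genes that received one, and the lowest value among the members was 0.396. All 28 members had passed the filter on low counts.

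The fitted log2 fold changes (Egr1-/- over Egr1+/+) of the members ran from −0.46 for Insig1 to 0.56 for Fdps, with a median of 0.02, beside a median of 0.00 over all tested genes. Their median size, whatever the sign, was 0.13, against 0.19 over all tested genes. The median SE was also smaller for the members, 0.17 against 0.20, and genes were not matched by level for this comparison. The 95% interval of each gene, not adjusted for the number of genes, lay within a 2-fold change either way for 26 of 28 members and within a 1.5-fold change for 15. The exceptions to the wider bound were Insig1 and Fdps. In 23 members the ratio of the highest to the lowest Egr1+/+ mouse was larger than the fitted change between the genotypes. The share of all tested genes for which this holds was not counted, so it does not set the members apart.

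**Figure D1:**
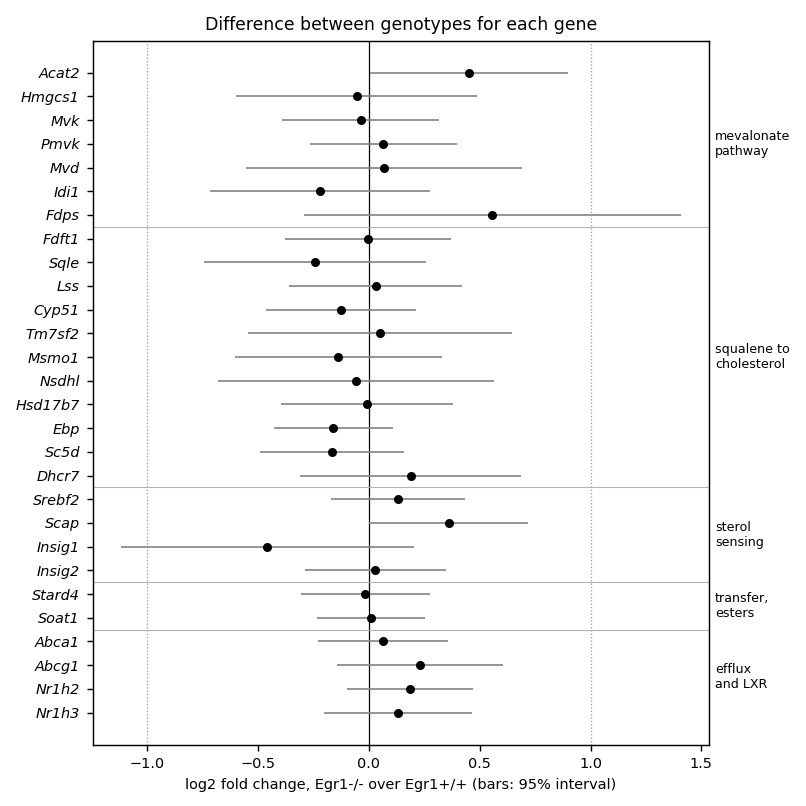
Fitted log2 fold change (Egr1-/- over Egr1+/+) of each of the 28 genes on the x axis, with its 95% interval as a bar, grouped by role. Dotted lines mark 2-fold changes. The points lie between −0.46 and 0.56 and 26 of the 28 bars cross 0.

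In the mevalonate pathway, the 7 members had a median log2 fold change of 0.06, with 4 positive and 3 negative. Acat2, which encodes the cytosolic thiolase that joins acetyl-CoA units and is not the sterol acyltransferase once known by a similar name, was at 5.53, 5.73 and 5.06 CPM in Egr1+/+ mice and at 6.93, 5.91 and 9.47 CPM in Egr1-/- mice. It was the only member whose genotypes did not overlap, which happened with Egr1-/- above in 8.15% of all tested genes and with Egr1-/- below in 8.1%. Its log2 fold change was 0.45 (SE 0.20, edgeR adjusted p = 0.463), and it stayed positive, from 0.24 to 0.60, when any 1 mouse was left out. Within Egr1-/- the spread was wide, the highest mouse holding 1.60 times the lowest. An annotated copy, Acat3, is 97.7% identical over 1477 bases of the Acat2 transcript and received 13 to 38 counts per mouse, where Acat2 received 172 to 293. Tcp1, with 4291 to 6675 counts per mouse, matches part of the Acat2 transcript on the opposite strand. The strand setting of the counting and how reads with several matches were counted are not given in the sources used here.

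Hmgcs1, the cytosolic synthase that makes HMG-CoA, was at 313, 186 and 205 CPM in Egr1+/+ mice and at 237, 163 and 278 CPM in Egr1-/- mice. The groups overlapped widely, and the highest and the lowest mouse belonged to different genotypes. The 95% interval of the log2 fold change of −0.05 ran from −0.60 to 0.49. Leaving out Egr1+/+ replicate 1 turned it to 0.19 and leaving out Egr1-/- replicate 2 turned it to 0.14.

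Idi1, the isomerase of isopentenyl diphosphate, was at 14.1, 7.92 and 9.49 CPM in Egr1+/+ mice and at 8.82, 7.91 and 10.4 CPM in Egr1-/- mice. Only Egr1+/+ replicate 1 stood clear of the other mice. Its log2 fold change was −0.22 (95% interval −0.71 to 0.28) and became 0.04 without that mouse. Near-identical stretches of 8 other genes cover 35.3% of the Idi1 transcript. The pseudogenes Gm13502 and Gm35570, with the longest of these, received 0 to 3 counts per mouse, and Cldn34c1, with a short one, 132 to 274, where Idi1 received 238 to 486.

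The kinases and the decarboxylase between these steps had fitted values near 0. Mvk, which phosphorylates mevalonate, was at 4.94 ± 0.24 CPM in Egr1+/+ and 4.82 ± 0.15 CPM in Egr1-/- mice (SD, n = 3 per genotype, as for all such values here). Pmvk, the kinase of the next step, was at 7.07 ± 0.74 and 7.39 ± 0.18 CPM. Mvd, which removes the carboxyl group of mevalonate diphosphate, was at 1.55 ± 0.37 and 1.62 ± 0.11 CPM. The 3 log2 fold changes lay between −0.04 and 0.07, and the 95% interval of Mvd, the widest of the 3, ran from −0.55 to 0.69.

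Fdps, the synthase of farnesyl diphosphate, had the highest fitted value of the set on the fewest counts. It was at 0.495, 0.599 and 0.626 CPM in Egr1+/+ mice and at 1.05, 0.581 and 0.905 CPM in Egr1-/- mice, with Egr1-/- replicate 2 among the Egr1+/+ values. These levels rest on 17 to 35 counts per mouse. The 95% interval of the log2 fold change of 0.56 ran from −0.29 to 1.41. Its transcript is covered over 91.4% of its length by near-identical stretches (at least 95% identity over 50 bases) of 6 other genes. The pseudogenes Gm5873 and Gm8163 received 0 to 2 counts in any mouse, and Gm43738, which shares Fdps exons on the same strand, received 0 counts in all 6, so the low level of Fdps is uncertain.

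From squalene to cholesterol, the 11 members had a median log2 fold change of −0.06, with 3 positive and 8 negative, and in every one of them the genotypes overlapped. Sqle, the rate-limiting epoxidase, was at 4.34, 4.23 and 3.85 CPM in Egr1+/+ mice and at 3.54, 2.58 and 4.36 CPM in Egr1-/- mice. The 3 Egr1+/+ mice were close together, whereas Egr1-/- replicate 2 was the lowest of the 6 and Egr1-/- replicate 3 the highest. For Sqle the log2 fold change was −0.24 (95% interval −0.74 to 0.26). It ranged from −0.43 to −0.06 when 1 mouse was left out, the latter without Egr1-/- replicate 2.

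Nsdhl, a dehydrogenase of the demethylation of lanosterol, was at 13.2, 6.39 and 8.17 CPM in Egr1+/+ mice and at 8.43, 6.94 and 11.3 CPM in Egr1-/- mice. The range within Egr1+/+ was 2.06-fold and the fitted change between genotypes was 0.96-fold. Msmo1, the methyl oxidase of the same demethylation, was at 19.3, 10.4 and 13.5 CPM against 12.8, 12.3 and 14.3 CPM. Both genes were highest in Egr1+/+ replicate 1, and without that mouse their log2 fold changes went from −0.06 to 0.27 and from −0.14 to 0.11.

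Sc5d, the desaturase that acts near the end of the route, was the most abundant enzyme of this group, with 48.5, 36.9 and 46.7 CPM in Egr1+/+ mice and 40.4, 33.8 and 43.5 CPM in Egr1-/- mice. Ebp, the sterol isomerase, was at 16.1, 13.7 and 14.9 CPM against 12.9, 12.8 and 14.4 CPM. Their log2 fold changes were −0.17 (SE 0.14, edgeR adjusted p = 0.744) and −0.16 (SE 0.12, edgeR adjusted p = 0.703), negative whichever mouse was left out.

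Cyp51, the lanosterol demethylase, was at 11.8 ± 1.79 CPM in Egr1+/+ and 10.8 ± 1.02 CPM in Egr1-/- mice. Lss, the cyclase that makes lanosterol, was at 9.13 ± 1.06 and 9.33 ± 1.68 CPM, and Hsd17b7, the ketoreductase of the demethylation, at 4.32 ± 0.38 and 4.30 ± 0.30 CPM. Tm7sf2, a sterol reductase, was at 1.45 ± 0.21 and 1.49 ± 0.14 CPM, and shares 12.1% of its exon length with Vps51 on the same strand. All differences in this paragraph were smaller than the SD within at least 1 genotype.

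Dhcr7, the member with EGR1 letters in its promoters shown above, was at 3.73, 3.63 and 2.99 CPM in Egr1+/+ mice and at 2.97, 4.65 and 4.17 CPM in Egr1-/- mice. The lowest and the highest of the 6 values were both from Egr1-/- mice. Its log2 fold change was 0.19 (95% interval −0.31 to 0.69), and it ranged from 0.06 to 0.36 when 1 mouse was left out.

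Fdft1, which joins farnesyl units into squalene, was at 21.4, 19.7 and 22.8 CPM in Egr1+/+ mice and at 16.2 to 25.6 CPM in Egr1-/- mice. The Egr1-/- mice enclosed all Egr1+/+ values, and the log2 fold change was −0.00 with a 95% interval from −0.38 to 0.37. The gene overlaps Ctsb on the opposite strand over 18.3% of its exon length, and the strand setting of the counting is not given in the sources used here. Near-identical stretches of Ctsb and the pseudogene Gm6781 cover 54.7% of the Fdft1 transcript, the longest being 1249 bases at 97.4% identity. Gm6781 received 0 to 4 counts per mouse and Ctsb 8038 to 14179, where Fdft1 received 540 to 984.

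**Figure D2:**
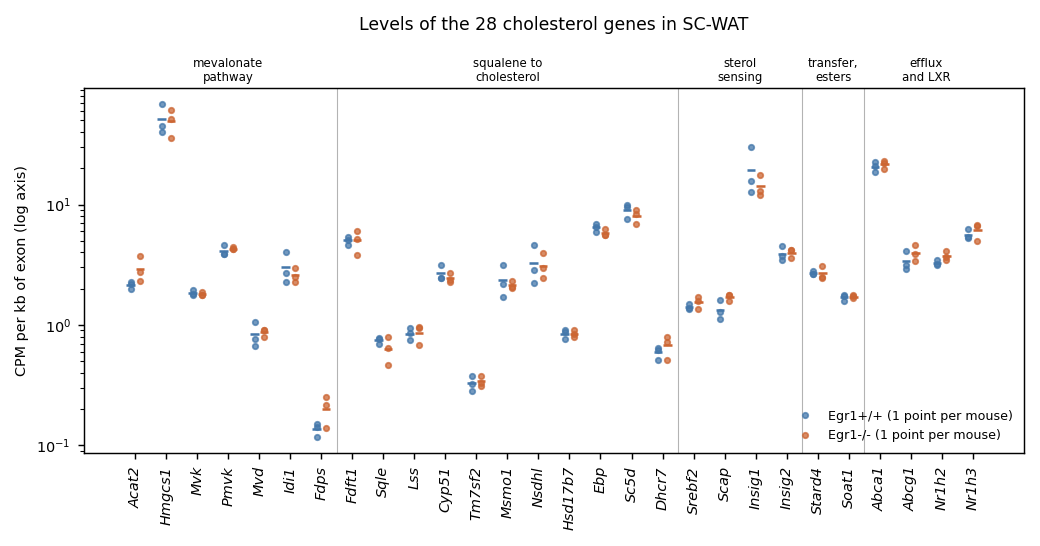
CPM per kb of exon (log axis) of each of the 28 genes in each mouse, grouped by role, with a short line at the genotype mean. The levels span from 0.136 for Fdps to 51.1 for Hmgcs1 in Egr1+/+ means, and the points of the genotypes overlap in every gene but Acat2.

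Among the sterol-sensing genes, Scap and Insig1 had the values farthest from 0, in opposite directions. Scap, the escort of SREBP2, was at 8.27, 11.9 and 9.44 CPM in Egr1+/+ mice and at 13.1, 13.1 and 11.7 CPM in Egr1-/- mice. The genotypes overlapped only through Egr1+/+ replicate 2 and Egr1-/- replicate 3. For Scap the log2 fold change was 0.36 (SE 0.16, edgeR adjusted p = 0.465) and stayed positive, from 0.23 to 0.51, when any 1 mouse was left out. Scap shares 13.2% of its exon length with 5830462I19Rik on the opposite strand, which received 3 to 18 counts per mouse.

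Insig1, the sterol-responsive anchor of SCAP, was at 92.6, 48.8 and 39.6 CPM in Egr1+/+ mice and at 37.3, 39.8 and 54.7 CPM in Egr1-/- mice. A single mouse, Egr1+/+ replicate 1, held 2.34 times the lowest Egr1+/+ value, and the other 5 mice lay between 37.3 and 54.7 CPM with both genotypes mixed. For Insig1 the log2 fold change was −0.46 (SE 0.29, edgeR adjusted p = 0.640), with a 95% interval from −1.12 to 0.20, and it was −0.02 without that mouse. Insig2, its relative, was at 13.6 ± 1.93 and 13.8 ± 1.14 CPM. Srebf2, which encodes SREBP2, was at 10.1 ± 0.47 CPM in Egr1+/+ and 11.1 ± 1.19 CPM in Egr1-/- mice, with a 95% interval of −0.17 to 0.43 around a log2 fold change of 0.13.

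Sterol transfer and esterification had the narrowest differences. Stard4, a carrier of cholesterol between membranes, was at 15.7, 14.9 and 14.8 CPM in Egr1+/+ mice and at 13.9, 17.4 and 13.7 CPM in Egr1-/- mice. Soat1, the acyltransferase that makes cholesteryl esters, was at 15.6, 17.1 and 17.3 CPM against 16.9, 17.2 and 16.2 CPM. The log2 fold changes were −0.02 (95% interval −0.31 to 0.28) and 0.01 (95% interval −0.23 to 0.26), and the interval of Soat1 was the narrowest of the 28.

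The 4 efflux and LXR genes all had positive log2 fold changes, with a median of 0.16, and in each the genotypes overlapped. Abca1, the transporter that loads cholesterol onto apolipoprotein A-I, was at 192, 236 and 216 CPM in Egr1+/+ mice and at 205, 238 and 231 CPM in Egr1-/- mice. Its log2 fold change was 0.07, with a 95% interval from −0.23 to 0.36. Abcg1, which passes cholesterol on to lipoprotein particles, was at 21.3, 30.2 and 22.8 CPM against 24.8, 33.8 and 28.6 CPM. In both transporters replicate 2 was the highest mouse of its genotype. The log2 fold change of Abcg1 was 0.23 (95% interval −0.14 to 0.61).

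Nr1h2, which encodes LXRβ, was at 11.7, 10.6 and 10.8 CPM in Egr1+/+ mice and at 13.7, 11.6 and 12.3 CPM in Egr1-/- mice. Nr1h3, which encodes LXRα, was at 13.5, 15.6 and 13.2 CPM against 16.7, 12.6 and 17.0 CPM. For Nr1h2 the ranges met only at their edges, and for Nr1h3 the Egr1-/- mice lay on both sides of the Egr1+/+ mice. The log2 fold changes were 0.19 (95% interval −0.10 to 0.47) and 0.13 (95% interval −0.20 to 0.47).

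The efflux transporters are also strongly expressed in macrophages. The summed CPM of 9 macrophage markers was 344 to 482 in Egr1+/+ mice and 271 to 322 in Egr1-/- mice, with no marker at 0 in any mouse, and 8 of the 9 had negative log2 fold changes. In bulk tissue, fewer cells of a type and less RNA per cell cannot be told apart. The summed CPM of 7 beige adipocyte markers ran from 521 to 668 in Egr1+/+ and from 920 to 1539 in Egr1-/- mice, and that of 6 stromal progenitor markers from 1103 to 1208 and from 602 to 864. For 9 adipocyte markers, of which Fabp4 gave the most CPM, it ran from 7203 to 8124 and from 5732 to 6682, with 6 negative and 3 positive log2 fold changes (Lipe, Pnpla2 and Plin1). The part of these shifts in the values of the cholesterol genes was not tested.

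Per length of exon, the order of the members was alike in both genotypes. Hmgcs1 led at 51.1 ± 14.9 CPM per kb in Egr1+/+ and 49.2 ± 12.7 CPM per kb in Egr1-/- mice, followed by Abca1 at 20.7 ± 2.13 and 21.6 ± 1.69 and Insig1 at 19.5 ± 9.15 and 14.2 ± 3.03. Abca1 and Insig1 could not be ordered beyond their spread in Egr1+/+ mice. Sc5d came next at 9.05 ± 1.29 and 8.07 ± 1.02 CPM per kb. At the low end were Tm7sf2 at 0.329 and 0.339 and Fdps at 0.136 and 0.201 CPM per kb.

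The levels of the synthesis enzymes were also compared from mouse to mouse. For each of the 18 enzymes, the log2 CPM of a mouse was set against the mean of the 6 mice. Egr1+/+ replicate 1 was the highest mouse in 9 enzymes and above the mean in 14, with a median deviation of 0.14. Egr1-/- replicate 3 was the highest in 5 and above the mean in 16, also with a median deviation of 0.14. The low mice were Egr1+/+ replicate 2, below the mean in 15 enzymes, and Egr1-/- replicate 2, below it in 14 and the lowest mouse in 7, both with a median deviation of −0.12. Over all tested genes these 4 mice were the highest in 16.9% to 19.7% of genes each and above the mean in 49.9% to 50.9%. Acat2, Mvd, Fdps and Tm7sf2 were exceptions, being below the mean of the 6 mice in Egr1+/+ replicate 1.

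**Figure D3:**
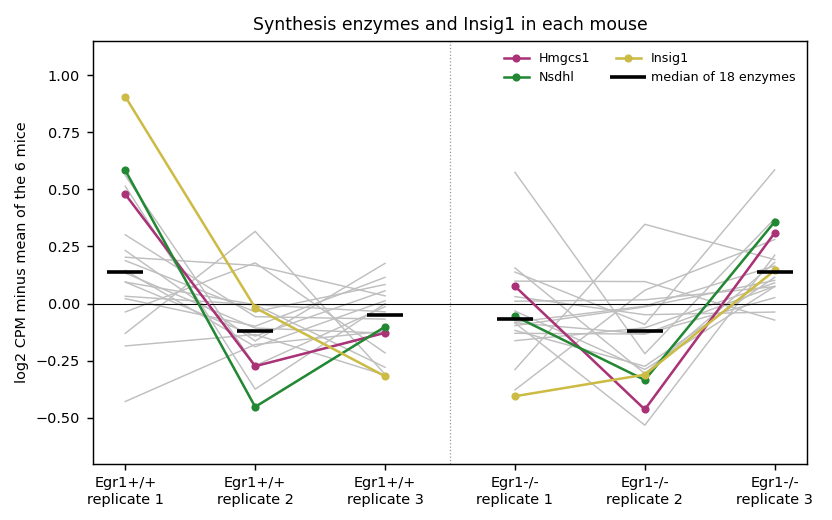
Log2 CPM minus the mean of the 6 mice for each of the 18 synthesis enzymes (grey lines) and for Insig1, with Hmgcs1 and Nsdhl coloured, in each mouse on the x axis. Black bars are the medians of the 18 enzymes, at 0.14 in Egr1+/+ replicate 1 and Egr1-/- replicate 3 and at −0.12 in the replicate 2 mouse of each genotype.

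Within Egr1+/+, replicate 1 was the highest of the 3 mice in 13 of 18 enzymes, and in 8 enzymes the order was replicate 1, then 3, then 2. Within Egr1-/-, replicate 3 was the highest in 14, and in 9 enzymes the order was replicate 3, then 1, then 2. Hmgcs1, Idi1, Lss, Msmo1, Nsdhl, Ebp and Sc5d followed both of these orders. The enzymes share their libraries and scaling, so this order describes the mice and is no test. The beige marker sum was 668, 536 and 521 CPM in Egr1+/+ replicates 1, 2 and 3, which shares only the highest mouse with the order above, and 1302, 920 and 1539 CPM in Egr1-/- replicates 1, 2 and 3, which has the same order. The summed CPM of 6 Schwann cell markers, cells that make much cholesterol for myelin, was 360, 258 and 255 in Egr1+/+ replicates 1, 2 and 3, and in Egr1-/- mice it was 226 in replicate 1, 173 in replicate 2 and 210 in replicate 3. Whether these cells bear on the enzyme levels was not tested.

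**Figure D4:**
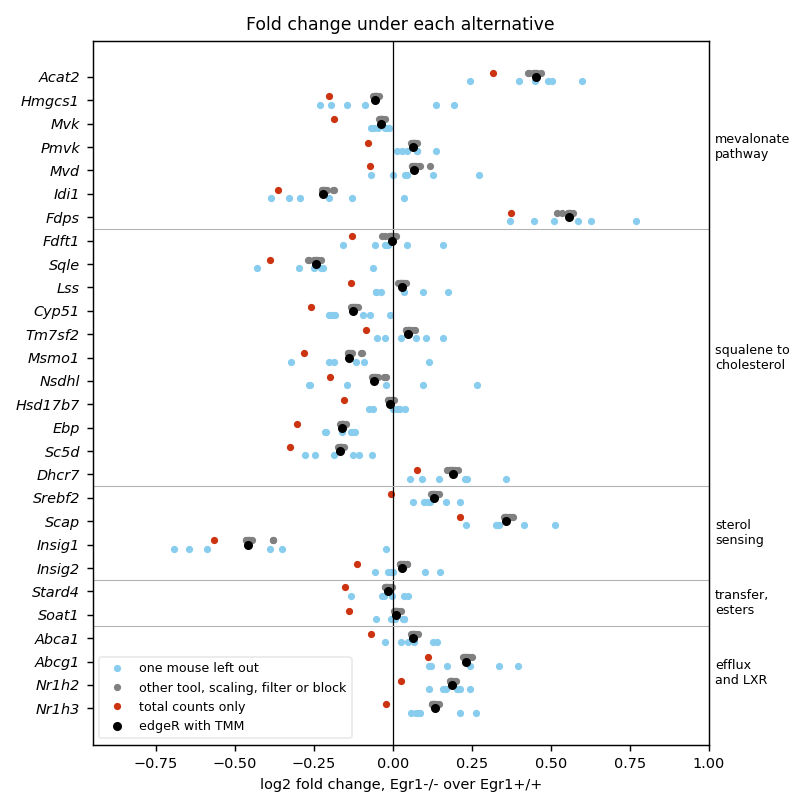
Log2 fold change (Egr1-/- over Egr1+/+) of each of the 28 genes under every alternative: fits without 1 mouse (blue), scaling by total counts only (red), all other tools, scalings, filters and the block (grey), and the reported fit (black). Leaving out 1 mouse moved Insig1 between −0.69 and −0.02, and scaling by total counts moved every gene downwards.

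For cholesterol genes outside the set, 53 further genes in 7 lists were examined, of which 52 were present and 49 passed the filter on low counts. None passed at an adjusted p of 0.05, 3 were higher in Egr1-/- mice at an unadjusted p under 0.05 and 0 lower, beside 5.06% and 5.6% of all tested genes, and the median log2 fold change was 0.14, with 33 positive and 16 negative. In 5 of the 49 genes every Egr1-/- mouse lay above every Egr1+/+ mouse, and in 0 below. Over all tested genes this happened in 8.15% and 8.1%, so a lack of overlap in single genes named below is not unusual. The examples named below are among the genes with the lowest p in each list.

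Of 6 lipoprotein receptors and adaptors, 4 had positive and 2 negative log2 fold changes, and all 6 overlapped between the genotypes. Vldlr, a receptor of triglyceride-rich particles, was at 95.7, 84.2 and 79.6 CPM in Egr1+/+ mice and at 99.4, 93.0 and 122 CPM in Egr1-/- mice. Its log2 fold change was 0.28 (SE 0.14, edgeR adjusted p = 0.527). Mylip, which marks lipoprotein receptors for degradation and is an LXR target, had −0.21 (95% interval half-width 0.38).

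Among 9 genes of SREBP processing and sterol control in the endoplasmic reticulum, 6 log2 fold changes were positive and 3 negative. Srebf1, whose products drive mainly fatty acid synthesis, was at 59.8, 39.2 and 50.2 CPM in Egr1+/+ mice and at 60.3, 57.4 and 76.1 CPM in Egr1-/- mice, with a log2 fold change of 0.38 (SE 0.17, edgeR adjusted p = 0.485). Erlin1, a sterol-binding protein of the endoplasmic reticulum, had −0.16.

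Of 10 further genes of sterol transfer, esterification and ester hydrolysis, 7 were positive and 3 negative. Gramd1b, which carries cholesterol from the plasma membrane to the endoplasmic reticulum, was at 30.4, 43.8 and 30.9 CPM in Egr1+/+ mice and at 51.2, 51.9 and 60.0 CPM in Egr1-/- mice. All 3 Egr1-/- mice lay above all 3 Egr1+/+ mice, and the log2 fold change of 0.64 (SE 0.16, edgeR adjusted p = 0.227) was the highest of the 49 genes. Its relative Gramd1a had 0.33 and the oxysterol-binding protein gene Osbp had 0.19, both with overlapping genotypes.

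Among 8 further transporters and LXR targets, 6 passed the filter, 4 with positive and 2 with negative log2 fold changes. Lpcat3, a phospholipid-remodelling enzyme that is an LXR target, was at 17.3, 11.9 and 14.4 CPM in Egr1+/+ mice and at 18.4, 18.2 and 21.6 CPM in Egr1-/- mice, without overlap, and its log2 fold change was 0.42 (SE 0.15, edgeR adjusted p = 0.375). Abca7 had 0.37 with overlapping genotypes, and Abca2 had 0.19 without overlap.

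Among the 4 sterol reductases and thiolases beside the members, 2 were positive and 2 negative, and all overlapped. Acat1, the mitochondrial thiolase, was at 265 ± 10.5 CPM in Egr1+/+ and 307 ± 50.5 CPM in Egr1-/- mice, with a log2 fold change of 0.21 (SE 0.15, edgeR adjusted p = 0.670). Acat3, the near-identical copy of Acat2, had a log2 fold change of 0.60 with a half-width of 1.09.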

How the data were processed

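The authors deposited raw read counts per gene for each mouse. Per the labels, total RNA was depleted of ribosomal RNA, made into strand-specific libraries and sequenced as single-end reads (paired-end in the study's methods), and the submitters' processing notes name TopHat2, Bowtie2, featureCounts, DESeq2 and the builds mm10 and GRCm38.p4. Settings for strand and for reads with several matches are not given in the sources used here. Symbols came from a GRCm38 annotation (46488 of 47069 identifiers matched). Counts were tested across all genes with edgeR 4.0.16 (quasi-likelihood test, TMM, filterByExpr, Benjamini-Hochberg over 17667 genes), with DESeq2 1.42.0 and limma 3.58.1 as alternatives. On simulated counts for the same 3 against 3 mice over 17667 genes, edgeR recovered 81.5% of 200 genes changed by a log2 fold change of 1 and 100% of 200 changed by 2. The changed genes were drawn from those above a floor of mean CPM, which left out low members such as Fdps and Mvd. In the data, Egr1 (log2 fold change −2.19) had an edgeR adjusted p of 0.088, and Dio2 (1.91) and Ucp1 (1.22) had 0.151. The simulated shares therefore do not show that a change of such size would have passed here. CPM per kb used the union of annotated exons. Near-identical transcripts were found with blastn 2.17.0.

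The members, lists and tests were chosen with earlier results of these data known. All members were to be named, with up to 3 genes of lowest p per further list, of which some are not reported here. An exact permutation test of 3 against 3 mice cannot go below p = 0.1, so none was used. Intervals cover the spread between mice.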

Additional observations from a re-analysis of the deposited data

How the results depend on the processing

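None of the 28 members passed the adjusted threshold under any of the 16 alternatives. Genes past it over the whole table numbered 3 and became 372 with DESeq2, 1 with limma-voom, 0 with upper-quartile scaling, 79 with total counts only, 552 without a filter on low counts, 0 with CPM of at least 1 in 3 mice, and 0 to 59 when 1 mouse was left out (59 without Egr1-/- replicate 1, 0 without any other). Members with an unadjusted p under 0.05 numbered 2 and became 1 with DESeq2, limma-voom, upper-quartile or RLE scaling. They became 0 with total counts only, 0 with CPM of at least 1 in 3 mice, where Fdps left the test, and 3 without a filter on low counts. There Insig1 joined with a lower value in Egr1-/- mice (log2 fold change −0.44, edgeR adjusted p = 0.153). In the fit without a filter, edgeR took the spread of each gene wholly from all genes (prior degrees of freedom infinite, 5.07 in the main fit). The wide spread of Insig1 among mice, and that of each of the 552 genes, thus did not enter its own p. Members with an unadjusted p under 0.05 ranged from 0 to 2 without 1 mouse (0 without Egr1+/+ replicate 1, Egr1-/- replicate 1 or Egr1-/- replicate 3, 1 without Egr1+/+ replicate 3 or Egr1-/- replicate 2, 2 without Egr1+/+ replicate 2). A replicate block left 0 genes and 1 member (unadjusted). Same-numbered mice deviated from their genotype means with correlations of −0.09, 0.11 and −0.13, and the block reversed no member. Each mean rests on 3 mice, so these correlations cannot show whether a number marks a shared litter or preparation.

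Total counts shifted the median of all genes to −0.15 and that of the members to −0.13, of the synthesis enzymes to −0.17 and of the efflux group to 0.0034. It reversed Pmvk (−0.079), Mvd (−0.072), Lss (−0.13), Tm7sf2 (−0.085), Srebf2 (−0.0058), Insig2 (−0.11), Soat1 (−0.14), Abca1 (−0.068) and Nr1h3 (−0.020). Without a filter, Fdft1 (0.011) and Hsd17b7 (0.0042) changed sign, as did Fdft1 without the 10 most counted genes (0.0030). Without 1 mouse, 13 members changed sign: Hmgcs1 (−0.23 to 0.19), Mvd (−0.069 to 0.27), Idi1 (−0.38 to 0.037), Fdft1 (−0.16 to 0.16), Lss (−0.053 to 0.18), Tm7sf2 (−0.051 to 0.16), Msmo1 (−0.32 to 0.11), Nsdhl (−0.26 to 0.27), Hsd17b7 (−0.076 to 0.040), Insig2 (−0.056 to 0.15), Stard4 (−0.13 to 0.049), Soat1 (−0.052 to 0.036) and Abca1 (−0.024 to 0.14). The other 15 kept their sign. No cause was tested.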

Other observations

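The prenyl branch, which draws on the mevalonate pathway for ubiquinone, dolichol and protein prenylation, had 9 genes tested, 7 with positive and 2 with negative log2 fold changes, and none past an adjusted p of 0.05. Fntb, the beta subunit of farnesyltransferase, was at 4.31, 3.86 and 4.38 CPM in Egr1+/+ mice and at 5.16, 5.49 and 5.37 CPM in Egr1-/- mice. The genotypes did not overlap, and the log2 fold change was 0.35 (SE 0.16, edgeR adjusted p = 0.480). Pdss1, which starts the ubiquinone side chain, had 0.37 (SE 0.18, edgeR adjusted p = 0.522), and Pggt1b, a subunit of another prenyltransferase, had −0.21 (SE 0.12), both with overlapping genotypes.

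Of 6 oxysterol and bile acid enzymes, 5 passed the filter and all 5 overlapped between the genotypes, with a median log2 fold change of 0.15. Cyp27a1, the sterol 27-hydroxylase whose product can activate LXR, was at 7.33, 10.5 and 8.42 CPM in Egr1+/+ mice and at 7.94 to 11.7 CPM in Egr1-/- mice. Cyp39a1, an oxysterol hydroxylase, had a log2 fold change of −0.27 (SE 0.22). Ch25h, the cholesterol 25-hydroxylase, was below 1 CPM in every mouse.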
